A study of Mus musculus with 3 samples.

Results

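The WNK, SPAK and OSR1 kinase cascade was examined in mpkDCT4a cells, a mouse kidney line that carries the name of the distal convoluted tubule, the segment after the loop of Henle. Its members were taken by name: the kinase genes Wnk1, Wnk2, Wnk3 and Wnk4, the genes of their substrate kinases SPAK (Stk39) and OSR1 (Oxsr1), and the cofactor genes Cab39 and Cab39l, 8 of 55487 genes in the count table. RNA depleted of ribosomal RNA was sequenced from 3 libraries labelled as replicates of 1 group of wild-type cells, so no conditions could be compared. All libraries came from cells grown in 2% serum with selenate (90 nM, a unit that the label prints as nm), transferrin (5 µg/ml), glutamine (2 mM), dexamethasone (50 nM), triiodothyronine (1 nM), epidermal growth factor (10 ng/ml), insulin (5 µg/ml), glucose (20 mM) and HEPES (20 mM), at 37 °C and 5% CO2. Whether the replicates were separate cultures is not stated, so each p-value speaks only of the spread among these 3 libraries, and that spread may be technical.

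WNK kinases sense chloride and osmotic stress, and they activate SPAK and OSR1 by phosphorylating a threonine in the activation segment. SPAK and OSR1 in turn phosphorylate cation chloride cotransporters, which turns the sodium-driven carriers on and the potassium chloride carriers off. The MO25 proteins encoded by Cab39 and Cab39l bind SPAK and OSR1 and raise their activity. In the distal convoluted tubule the cascade sets the activity of the sodium chloride cotransporter and so takes part in the control of blood pressure and potassium.

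The name WNK (with no lysine) comes from the place of the catalytic lysine, which lies in the glycine-rich loop, while a cysteine stands where other kinases carry it. The coding bases from that loop to the cysteine are shown because they define the family whose levels are compared here. They were read from GENCODE M21 transcripts (GRCm38). Capitals mark the lysine codon first and the cysteine codon second.
Wnk1: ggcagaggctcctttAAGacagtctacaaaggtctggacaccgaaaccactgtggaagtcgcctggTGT
Wnk2: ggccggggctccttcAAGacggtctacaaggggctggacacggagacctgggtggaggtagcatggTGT
Wnk3: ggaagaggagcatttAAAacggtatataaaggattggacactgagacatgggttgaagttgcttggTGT
Wnk4: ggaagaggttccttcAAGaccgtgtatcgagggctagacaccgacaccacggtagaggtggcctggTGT
The stretch lies in coding exon sequence at chr6:120036883-120036951 (minus strand, exon 1, codons 233 and 250 marked) for Wnk1, and at chr13:49146561-49146629 (minus strand, exon 2, codons 207 and 224) for Wnk2. For Wnk3 it is at chrX:151198596-151198664 (plus strand, exon 1, codons 158 and 175), and for Wnk4 at chr11:101261203-101261271 (plus strand, exon 1, codons 183 and 200). Wnk1 and Wnk4 shared 54 of 69 bases there, and 21 of 23 codons encoded the same residue.

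The activation segments of the substrate kinases are shown next, for the contrast between Stk39 and Oxsr1. Per exon length it is the widest among pairs within the same family (WNK, SPAK/OSR1 or MO25) with counts in every library. Capitals mark the codon of the threonine that WNK kinases phosphorylate, codon 243 in Stk39 and codon 185 in Oxsr1.
Stk39: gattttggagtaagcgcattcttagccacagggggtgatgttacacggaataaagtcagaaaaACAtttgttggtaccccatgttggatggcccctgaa
Oxsr1: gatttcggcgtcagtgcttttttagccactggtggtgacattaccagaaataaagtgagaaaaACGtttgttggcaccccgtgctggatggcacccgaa
Both stretches run over exons 5 and 6 on the minus strand, at chr2:68369008-68390914 for Stk39 and chr9:119268692-119272929 for Oxsr1. They shared 79 of 99 bases, and 32 of 33 codons encoded the same residue. Over the whole coding sequence, 74.3% of 1491 aligned bases were identical. None of the 50-base stretches of Stk39 or Oxsr1 transcripts, on either strand, occurred in an annotated transcript of another gene, so reads of that length could be told apart.

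The libraries held 436983, 482418 and 443192 counts, so that a single count stood for 2.31, 2.07 and 2.24 CPM (counts per 1000000 counts). Between-library spread beyond counting error was small, with a biological coefficient of variation of 0.0394 from edgeR over 12473 genes. Of 11 markers of the distal convoluted tubule 4 reached a mean of 1 CPM, the level called detected here. They were Cnnm2 (19.8 CPM, 27 counts), Trpm6 (8.84 CPM, 12 counts), Kcnj10 (6.67 CPM, 9 counts) and Egf (2.23 CPM, 3 counts). Egf had 0 counts in replicate 3. Slc12a3, which encodes the sodium chloride cotransporter and defines the segment, had 0 counts, as did Pvalb, Klhl3, Calb1, Emx1, Sall3 and Tmem52b. The summed level of these 11 markers was 32.3, 33.1 and 47.0 CPM in replicates 1, 2 and 3. Among markers of 8 other cell types, 8 of 34 were detected, and the 4 thick ascending limb and 4 intercalated cell markers had 0 counts. The proximal tubule gene Lrp2 was highest in CPM (215 ± 14.1), but 4 of the 6 proximal tubule markers had 0 counts. In TPM Lrp2 (47.3 ± 3.70) was below the water channel gene Aqp1 (84.6 ± 25.5) and the podocyte gene Podxl (78.1 ± 12.6). In a bulk sample, fewer cells that express a gene and less RNA of it per cell cannot be told apart.

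Of the 8 cascade genes 6 were detected, against 50.6% of 21974 protein-coding genes. Levels between genes are compared in TPM, counts divided by the length of all annotated exons of the gene and scaled to a sum of 1000000 in each library. By mean TPM over the 3 libraries the order was Wnk1, Cab39, Oxsr1, Wnk4, Cab39l, Stk39, Wnk3 and Wnk2. The median over the 6 detected members was 51.2 TPM, beside 31.4 TPM over all detected protein-coding genes. Over all 8 members the median was 36.2 TPM, beside 1.51 TPM over all protein-coding genes.

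**Figure D1:**
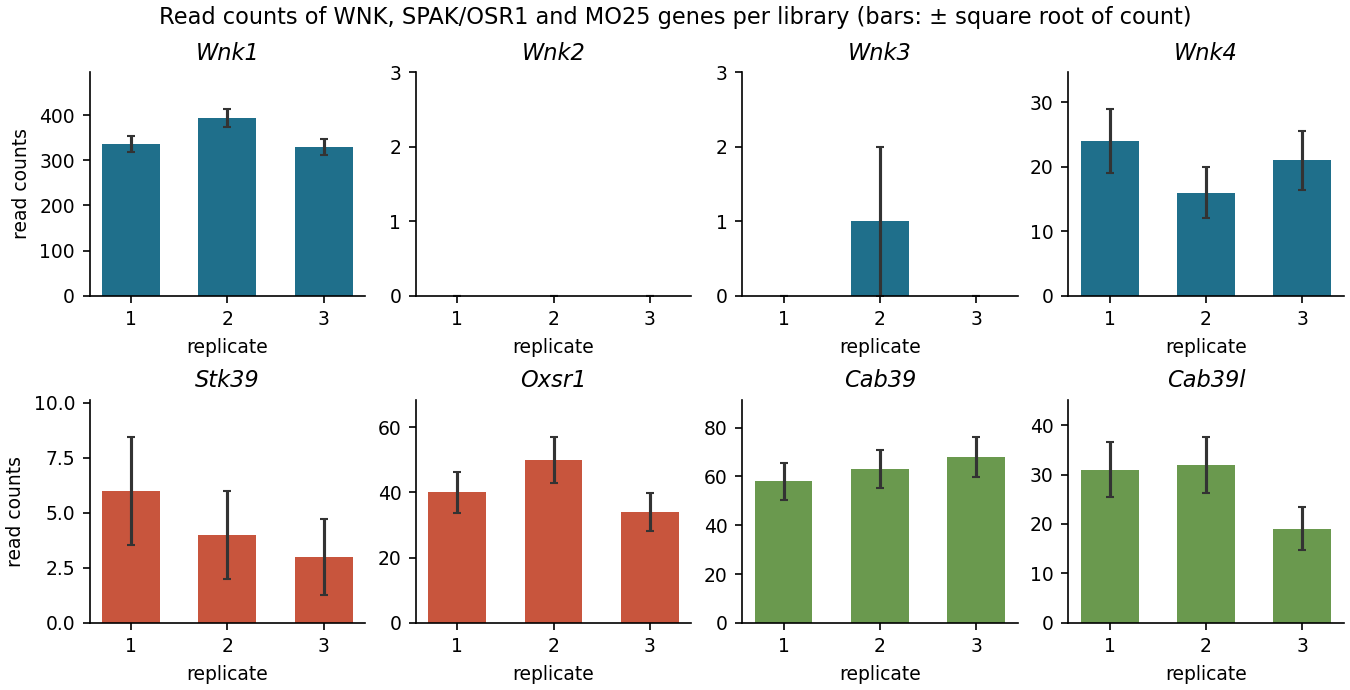
Read counts of the 8 genes (vertical axes, a scale of its own for each gene) in replicates 1, 2 and 3 (horizontal axes). Bars are counts and error bars the square root of each count. Wnk1 had 329 to 393 counts per library, Stk39 had 3 to 6, Wnk3 had 1 in replicate 2 alone and Wnk2 had 0.

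Wnk1, the broadly expressed WNK kinase, was the highest member in reads and, per exon length, in transcripts. It had 336, 393 and 329 counts in replicates 1, 2 and 3, or 123, 132 and 120 TPM (125 ± 6.38, SD, n = 3). Replicate 2 was the highest and replicate 3 the lowest, and the mean was above that of 93.4% of protein-coding genes. This share, and those given below for other members, count undetected genes too. Wnk1 (ENSMUSG00000045962) lies at chr6:119923969-120038672 on the minus strand. It took 1058 of the 1528 counts of all members, or 69.2%.

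Wnk4, the WNK kinase tied most closely to the distal nephron, was detected in every library. Its counts were 24, 16 and 21, or 48.4, 29.6 and 42.1 TPM (40.04 ± 9.56, SD, n = 3), above 78.5% of protein-coding genes. Replicate 2 was the lowest for Wnk4 and the highest for Wnk1. Wnk4 (ENSMUSG00000035112) lies at chr11:101260567-101277409 on the plus strand, and 306 of its exon bases overlap the antisense gene Gm11615. Whether the counting used strand is not known from the sources at hand, so reads of that overlap cannot be assigned.

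Wnk1 exceeded Wnk4 in all 3 libraries. Per exon length it was 2.54, 4.46 and 2.85 times as high in replicates 1, 2 and 3, and 3.15 times over the summed counts (95% exact binomial interval 2.43 to 4.15). The exact sign-flip permutation test over 3 libraries gave p = 0.25, two-sided, the smallest value that it can give. The size of this ratio depended on the length used: it was 6.30 per longest transcript, 8.04 per coding length and 17.3 in counts with no length. All exons of Wnk1 add up to 22825 bases and its longest transcript to 11330, while the same lengths are 4148 and 4117 for Wnk4. Of the 26 annotated Wnk1 transcripts 8 are retained-intron forms, which add to the summed exons.

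**Figure D2:**
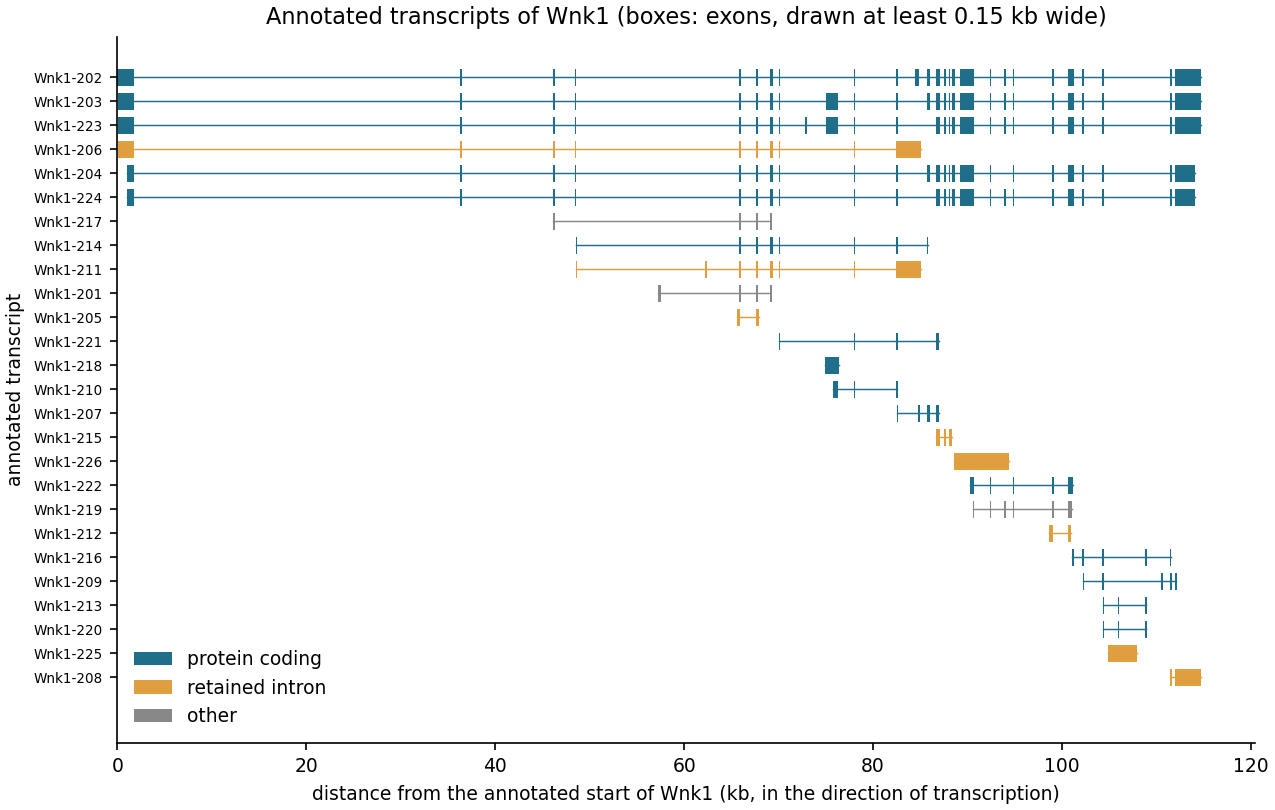
Annotated transcripts of Wnk1 (rows), with exons as boxes and introns as lines, by distance from the annotated start of the gene in kb (horizontal axis). Of the 26 transcripts, 20 start beyond the lysine codon of the first exon, and 8 are retained-intron forms. Some are short models, so an annotated start need not be a promoter.

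The gene-level counts do not tell the forms of Wnk1 apart. The kidney also makes a short WNK1 form that starts at an internal promoter and lacks most of the kinase domain. In the annotation 6 of 26 Wnk1 transcripts hold the lysine codon shown above, and the other 20 start downstream of it. How the 1058 counts divide between these groups was not tested.

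The other WNK genes were at or near 0. Wnk3, found mainly in brain, had 0, 1 and 0 counts (0.690 CPM), and Wnk2 had 0 in every library. The 95% exact interval for a count of 0 over all libraries reaches 2.71 CPM, which covers counting error only. For ratios a lower, fixed floor was used, 3 counts in all libraries together, or 2.20 CPM. Per exon length Wnk1 was 131-fold above that floor for Wnk2. Its ratio to Wnk3, which rests on a single count, was 491 with an interval of 87.9 to 19405. Without replicate 2, where Wnk3 had its count, Wnk1 was 103-fold above the floor of 3 counts. With all libraries other lengths gave ratios of 718 to 1748. Of all WNK counts, Wnk1 took 94.5% (exact binomial interval 93.0 to 95.7%) and Wnk4 5.45% (4.19 to 6.94%). Per exon length the shares were 75.7 ± 5.00% and 24.1 ± 5.25% (SD, n = 3). The SD covers spread between libraries only, and the shares depend on the length used. Per longest transcript Wnk1 stood at 196 TPM and Wnk4 at 31.4 TPM.

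Wnk2 (ENSMUSG00000037989) lies at chr13:49036303-49148014 on the minus strand, and Wnk3 (ENSMUSG00000041245) at chrX:151198078-151320152 on the plus strand. For Wnk3, 523 exon bases overlap the antisense gene A230072E10Rik, so its single count is uncertain.

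Oxsr1 and Stk39 encode kinases that act on the same carriers, and Oxsr1 was the higher of the pair in every library. Oxsr1 had 40, 50 and 34 counts, or 62.5, 71.8 and 52.9 TPM (62.4 ± 9.45, SD, n = 3), above 85.3% of protein-coding genes. Stk39 had 6, 4 and 3 counts, or 10.1, 6.20 and 5.04 TPM (7.12 ± 2.67, SD, n = 3), above 57.4% of protein-coding genes. That share counts undetected genes, and Stk39 lay below the median of 31.4 TPM over detected protein-coding genes. The lowest library of Oxsr1 was above the highest of Stk39. With 13 counts in all, the counting error of Stk39 alone is 27.7% of its level, against 8.98% for Oxsr1.

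Per exon length Oxsr1 was 6.17, 11.6 and 10.5 times as high as Stk39 in replicates 1, 2 and 3, and 8.83 times over summed counts (95% exact binomial interval 4.98 to 17.1; exact sign-flip permutation p = 0.25). It took 90.5% of the pair's 137 counts (exact binomial interval 84.3 to 94.9%). Under the other lengths the ratio ranged from 6.11, per mean transcript length, to 10.1, per coding length. Oxsr1 (ENSMUSG00000036737) lies at chr9:119238432-119322427 and Stk39 (ENSMUSG00000027030) at chr2:68210445-68472268, both on the minus strand.

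**Figure D3:**
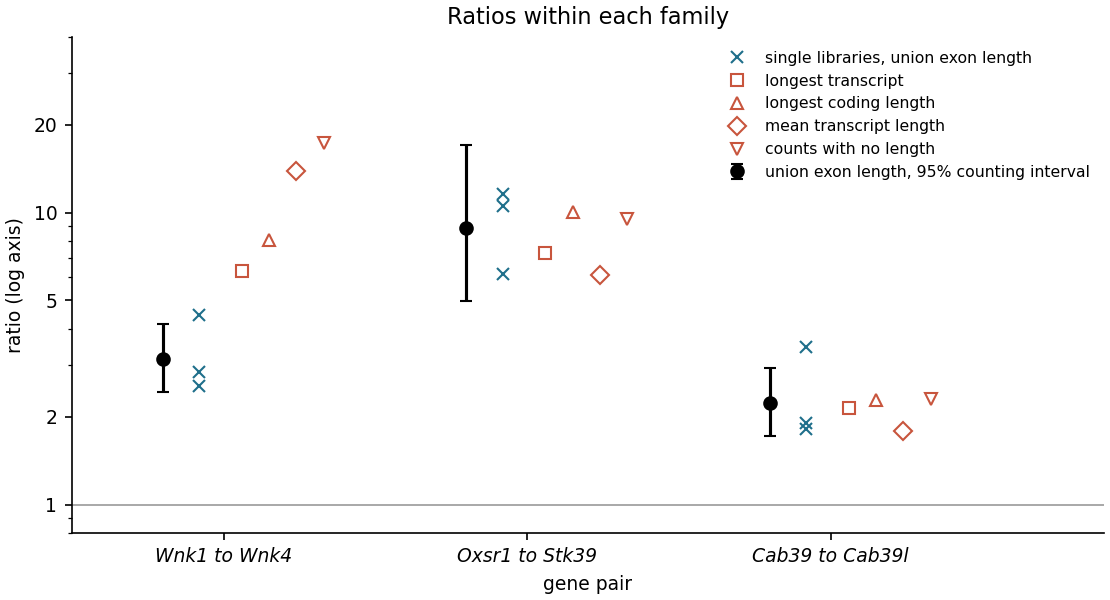
Ratios of Wnk1 to Wnk4, Oxsr1 to Stk39 and Cab39 to Cab39l (horizontal axis) on a log axis. Filled circles are ratios per summed exon length with 95% counting intervals, crosses single libraries, and open symbols other gene lengths or counts with no length. All points lie above 1, and the ratio of Wnk1 to Wnk4 runs from 3.15 to 17.3 with the length used.

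SPAK and OSR1 belong to the germinal centre kinases, a branch of the STE20 family with 22 other genes listed here. Oxsr1 ranked 6 of 24 by TPM and Stk39 ranked 18. Oxsr1 ranked 7 by coding length and 8 by longest transcript. Stk39 kept its rank under every length used and with each replicate left out. Of the 22 others 19 were detected, beside 50.6% of protein-coding genes. The median over all 22, those at 0 included, was 25.9 TPM, which lies between Stk39 and Oxsr1. The highest were Taok1 (146 ± 3.97 TPM), Slk (146 ± 5.50 TPM) and Stk24 (126 ± 13.0 TPM), while Stk26, Myo3a and Myo3b had 0 counts. The genes beside Oxsr1 in rank were Stk4, a Hippo pathway kinase (91.5 ± 8.42 TPM), and Stk25 (51.4 ± 8.93 TPM), whose range of 42.3 to 60.1 TPM overlaps that of Oxsr1. Those beside Stk39 were Stradb (10.4 ± 2.34 TPM) and Map4k1 (5.29 ± 5.44 TPM), and the ranges of both overlap that of Stk39.

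**Figure D4:**
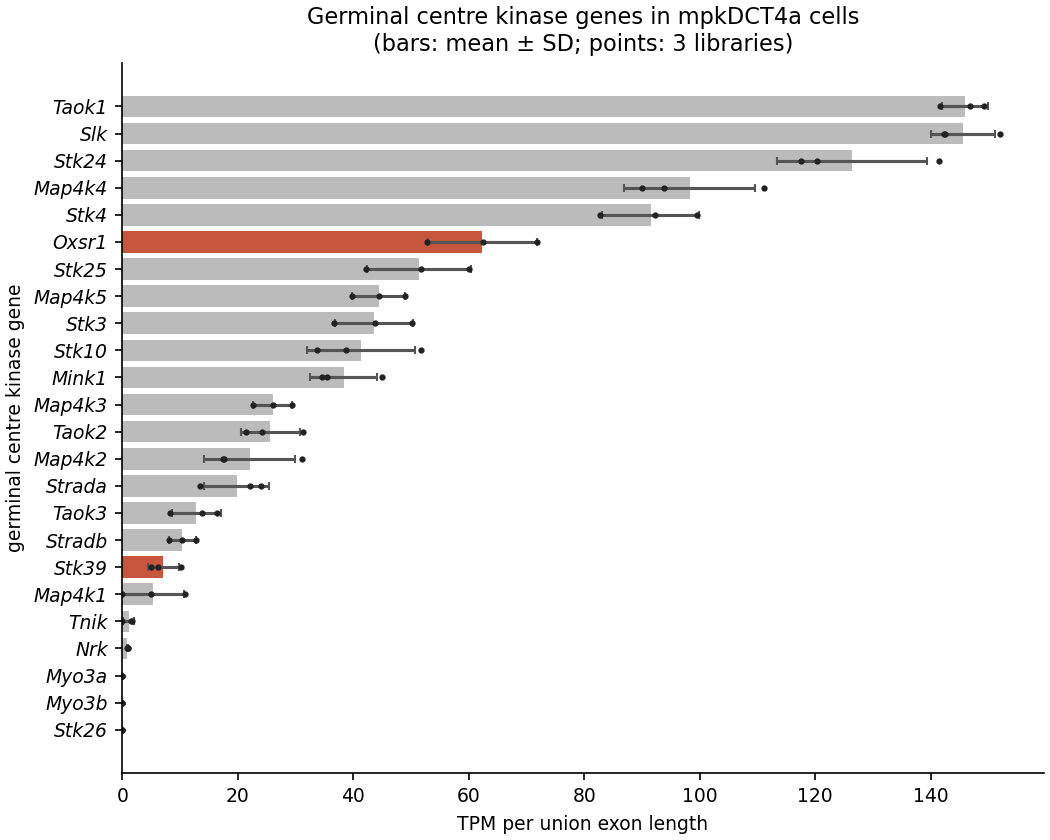
TPM per summed exon length (horizontal axis) of 24 germinal centre kinase genes (vertical axis). Bars are means with SD over 3 libraries and points single libraries, with Oxsr1 and Stk39 in red. Oxsr1 is at 62.4 TPM, place 6, and Stk39 at 7.12 TPM, place 18.

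Both MO25 genes were detected. Cab39 had 58, 63 and 68 counts, or 68.6, 68.4 and 79.9 TPM (72.3 ± 6.63, SD, n = 3), above 87.4% of protein-coding genes. Cab39l had 31, 32 and 19 counts, or 37.9, 35.9 and 23.1 TPM (32.3 ± 8.03, SD, n = 3). Replicate 3 was the highest for Cab39 and the lowest for Cab39l, and the ranges did not overlap. Cab39 was 1.81, 1.90 and 3.46 times as high per exon length in the single libraries, and 2.23 times over summed counts (95% exact binomial interval 1.71 to 2.92; exact sign-flip permutation p = 0.25). Under other lengths the ratio stayed between 1.78 and 2.28, and in counts with no length it was 2.30.

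The coding sequences of Cab39 and Cab39l shared 75.6% of 1002 aligned bases. Cab39 (ENSMUSG00000036707) lies at chr1:85793441-85851576 and Cab39l (ENSMUSG00000021981) at chr14:59440972-59585764, both on the plus strand. No 50-base stretch of Cab39 occurred in another gene. Of those of Cab39l 3.40% did, mostly in Cdadc1, whose exons overlap 261 of its bases on the other strand.

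Neighbours in the order of levels were not all apart. Cab39 and Oxsr1 had overlapping ranges and a ratio of 1.15 (0.914 to 1.46), and Wnk4 and Cab39l likewise, with a ratio of 1.23 (0.866 to 1.73). Wnk1 stood above Cab39 by 1.74-fold (1.49 to 2.04), Oxsr1 above Wnk4 by 1.58-fold (1.15 to 2.18) and Cab39l above Stk39 by 4.57-fold (2.53 to 8.94), each in all 3 libraries. Of 11 pairs compared, 9 had 1 direction in every library. This tally is no test of the order, since 6 of the pairs were taken from the order in these same libraries. In addition, pairs with Wnk2 or Wnk3 rest on 0 or 1 counts of that gene. Per coding length Cab39 came first, at 181 TPM against 131 TPM for Wnk1, and Cab39l (79.1 TPM) stood above both Oxsr1 (76.4 TPM) and Wnk4 (16.4 TPM). These values divide counts of the whole gene by coding bases alone, which raises genes with a small coding part. Coding bases are 1023 against 3805 in the longest transcript for Cab39, and 7905 against 11330 for Wnk1. Stk39, Wnk3 and Wnk2 kept the last 3 places under all 4 lengths.

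**Figure D5:**
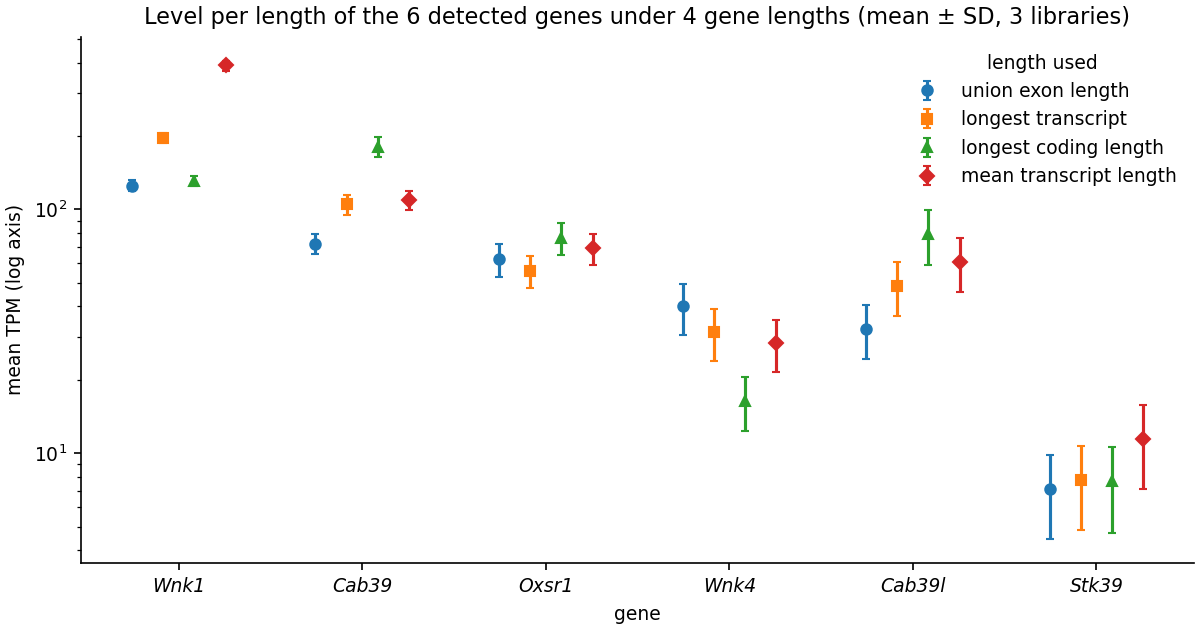
Mean TPM on a log axis (vertical) of the 6 detected genes (horizontal), with SD over 3 libraries, for 4 ways of setting gene length. Stk39 is lowest under each, at 7.12 to 11.4 TPM, and Cab39 stands above Wnk1 only per coding length. For that length, counts of the whole gene are divided by coding bases alone.

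Summed by role, the WNK genes stood at 172, 163 and 162 TPM in replicates 1, 2 and 3 (165 ± 5.35, SD, n = 3). The MO25 genes stood at 106, 104 and 103 TPM (105 ± 1.74) and Stk39 with Oxsr1 at 72.7, 78.0 and 57.9 TPM (69.5 ± 10.4). The substrate kinases were the lowest of the 3 roles in every library, and under each length their mean was below the others. WNK and MO25 genes changed places per coding length, at 147 ± 4.36 and 260 ± 6.87 TPM, where counts of the whole gene are divided by coding bases alone.

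No member was shown to differ between the replicates beyond counting error. The chi-square test, run gene by gene and adjusted by Benjamini-Hochberg, called 0 of 6 members tested, against 0.0401% of the 12473 genes. The smallest adjusted p among them was 0.909, for Cab39l, with an unadjusted p of 0.171, and 0 members had an unadjusted p under 0.05. An exact multinomial test gave Cab39l p = 0.157, Wnk4 p = 0.265, Oxsr1 p = 0.378, Stk39 p = 0.574 and Cab39 p = 0.635. The depth behind the value of Stk39 is 13 counts.

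The other genes of the pathway are described by list. Each number detected stands beside 50.6% of 21974 protein-coding genes, and as few as 2 counts could reach the level called detected. Of 9 genes whose products bind WNK kinases, SPAK or OSR1, all were detected, with a median of 39.2 TPM. Relt and Rell2 had only 2 counts each, and Nrbp2 had 4. Tsc22d1 was highest (202 ± 24.2 TPM), followed by Nrbp1, a pseudokinase related to the WNK family (107 ± 45.3 TPM), and Tsc22d3 (44.3 ± 13.2 TPM). Nrbp1 had 61, 56 and 24 counts, with replicate 3 the lowest, an unadjusted chi-square p of 0.000183 and an adjusted p of 0.381.

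MO25 also serves the kinase LKB1 and its partner STRAD, as well as other germinal centre kinases. Of 6 such genes 5 were detected, Stk24 highest, then Stk11, which encodes LKB1 (73.2 ± 1.70 TPM), and Stk25, with Stk26 at 0 counts. Cab39 itself was at 72.3 TPM.

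Among 8 genes of WNK degradation, which include general regulators of ubiquitin ligases and the kinase gene Sgk1, 7 were detected, with Cand1 (247 ± 27.3 TPM), the scaffold Cul3 (167 ± 5.61 TPM) and Cops5 (79.9 ± 10.1 TPM) highest. Klhl3, the adaptor that brings WNK kinases to Cul3 in the distal convoluted tubule, had 0 counts. Its relative Klhl2 had 18, 14 and 9 counts (30.2 ± 10.7 CPM). Of 8 phosphatase genes 7 were detected, led by Ppp1ca (723 ± 118 TPM), Ppp1cb (101 ± 8.59 TPM) and Ppp4c (72.3 ± 11.5 TPM), with the inhibitor gene Ppp1r1a at 0.

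Of the 9 SLC12 genes, which include the cascade's carriers, 6 were detected, beside 50.6% of protein-coding genes. Slc12a4 (121 ± 11.8 TPM), Slc12a2 (94.5 ± 8.91 TPM) and Slc12a7 (48.9 ± 4.51 TPM) were highest, and Slc12a8 had only 3 counts. Slc12a1 and Slc12a3, the apical sodium carriers that SPAK and OSR1 act on in the kidney, had 0 counts.

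The promoters of the members differed in their content of the dinucleotide CG. In the 250 bases before each RefSeq start (GRCm38.p6), the motif CG, which reads the same on both strands, was counted. All 8 genes matched, with 9 windows. Members with counts in every library had 27 (Cab39), 29 and 1 (the 2 starts of Cab39l), 21 (Oxsr1), 43 (Stk39), 26 (Wnk1) and 17 (Wnk4). Wnk2 had 5 and Wnk3 had 2, beside a median of 6 over 32851 promoters. The windows of Wnk1 and Wnk3 are shown as those of a WNK gene high in every library and of one near 0. Capitals mark each CG.
Wnk1: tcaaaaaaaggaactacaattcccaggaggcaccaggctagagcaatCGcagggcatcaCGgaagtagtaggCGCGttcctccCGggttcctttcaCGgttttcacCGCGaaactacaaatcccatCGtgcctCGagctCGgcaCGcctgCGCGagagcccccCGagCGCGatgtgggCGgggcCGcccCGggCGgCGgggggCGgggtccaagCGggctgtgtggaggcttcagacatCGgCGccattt
Wnk3: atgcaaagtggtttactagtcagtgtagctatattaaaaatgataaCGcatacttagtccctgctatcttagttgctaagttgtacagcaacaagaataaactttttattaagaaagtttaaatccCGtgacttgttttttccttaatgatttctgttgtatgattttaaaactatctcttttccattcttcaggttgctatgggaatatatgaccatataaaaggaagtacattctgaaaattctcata
The Wnk1 window is chr6:120038656-120038905 (minus strand), and 90.4% of promoters had fewer CG. The Wnk3 window is chrX:151197828-151198077 (plus strand), where 18.8% had fewer. The RefSeq start of Wnk2 lies 314 bases from the nearest GENCODE start, so its window may not be the promoter that the annotation uses. Across 16492 protein-coding genes, taking the window with most CG, 53.4% were detected. The share was 84.4% with at least 20, 69.0% with 6 to 19 and 10.9% with at most 5. Whether CG content bears on the level of any member was not tested. For Stk39 all 250 bases of the window lie in an annotated exon of its protein-coding transcript, so its count of CG describes that exon. Of the second Cab39l window 135 bases lie in annotated exons, and of the Wnk1 window 17.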

How the data were processed

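RNA of 3 mpkDCT4a libraries (500 ng of total RNA, fragments of about 300 bp, ribosomal RNA removed) was counted per Ensembl gene by the authors. The deposited values are raw counts. Per the submitters' processing notes, the build was mm10 and tools included STAR and HTSeq; versions, strand setting and annotation: not given in the sources used here. Names and lengths came from GENCODE M21 (GRCm38): 55227 of 55487 identifiers matched, and the 260 others held 0.0230% of counts. No column went unused.

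Library sizes were totals scaled by TMM in edgeR 4.0.16 (R 4.3.3). TPM used the summed exon length. Each gene's counts were tested by chi-square against library size, adjusted by Benjamini-Hochberg (called under 0.05) across genes whose mean reached 1 CPM. The test was also run on counts simulated with the counting error that it assumes, so other kinds of spread were not checked. Ratios carry 95% exact (Clopper-Pearson) intervals, and sign-flip tests used log2(TPM + 0.5). Intervals and limits cover counting error only, and reads carry no molecular identifiers. The 3 libraries limit the precision.

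All members and distal convoluted tubule markers were named, of the pathway lists and germinal centre kinases the 3 highest and those at 0, and of other cell type markers the highest. Rell2, Relt, Nrbp2, Slc12a8, Klhl2, Sgk1, Stk4, Stradb, Map4k1, Aqp1 and Podxl were named after their values were seen. The members and lists were chosen with earlier results of these data known. Alternatives were DESeq2 1.42.0 size factors, total counts, other filters, lengths and pseudocounts, an exact multinomial test for genes of up to 300 counts, and leaving out each replicate. Python 3.11.15, scipy 1.17.1, pandas 2.3.3, numpy 2.4.6, Biopython 1.88 and matplotlib 3.10.9 were used.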

Additional observations from a re-analysis of the deposited data

How the results depend on the processing

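No paired analysis was possible because the labels give 1 group. Of 182 alternative values over 26 results, 149 were counted as unchanged, by the spread between libraries or within 1.5 times the count. That number includes the alternative ratios to Wnk3, such as 1748 for Wnk1 per mean transcript length. Only replicate 2 gave a ratio to Wnk3, so for these no spread between libraries could be judged. Wnk1 to Wnk4 was 6.30 per longest transcript, 8.04 per coding length, 13.9 per mean transcript length and 17.3 in counts. The ratio of Wnk1 to the floor of 3 counts set for Wnk2 was 215, 296, 619 and 353 under the same settings. With a replicate left out it was 82.4 to 90.3, since 3 counts are then set against fewer reads. For Wnk2 and Wnk3, pseudocount settings were not run because libraries had 0 counts. The single count of Wnk3 lies in replicate 2. Without that replicate, and against the same floor, Wnk1 to Wnk3 was 103 (491 with all libraries) and Stk39 to Wnk3 was 6.41 (27.8). Oxsr1 to Stk39 was 6.11 per mean transcript length. Per coding length 3 of 8 members kept their place in the order, and Wnk1 to Cab39 reversed to 0.724. Wnk4 to Cab39l reversed to 0.641 per longest transcript, 0.205 per coding length, 0.460 per mean transcript length and 0.744 in counts. Over all genes tested, 5 varied between replicates, 1 without replicate 1 and 3 without replicate 2 or 3, and 0 members in each case. Without replicate 1 or 3, 7 members were detected, because the single count of Wnk3 then exceeds 1 CPM. At a mean of at least 10 CPM the number fell to 5, because Stk39 lies at 9.62 CPM. Depth limits Stk39, Wnk2 and Wnk3, with 13, 0 and 1 counts.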
